A study of Mus musculus with 211 samples.

Results

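Among adult cochlear cells sorted for GFP, 54 GFP-bright and 61 GFP-dim cells were compared, which together are 115 of the 211 cells of the series. The classes came from the normalized GFP intensity deposited for each cell, a score whose making was not given in the sources used here. Cells at 500 or more were taken as bright and cells below 250 as dim. The 49 cells between these limits were left out of the main tests, and cells with fewer than 50000 reads on genes (47 cells) were not used. The lowest bright cell was at 505 and the highest cell below it at 459, while the highest dim cell was at 249 and the lowest cell above it at 254. The shallowest cell used held 64947 reads and the deepest cell not used 43998. No measured transcript entered these rules.

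All cells carried the same Lfng-EGFP bacterial artificial chromosome transgene, on the CD1 strain, in which EGFP is made under control of the *Lfng* locus. Mice were P60 or P120, and several animals were pooled in each capture on the microfluidic chip, so captures, not cells, served as replicates. The bright cells were 20 at P60 and 34 at P120, from 10 captures, and the dim cells were 36 at P60 and 25 at P120, also from 10 captures. The study took out endothelial cells and outlying cells before deposit, and no GFP-negative sort was analysed here.

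*Lfng* encodes a fringe glycosyltransferase that adds sugar to Notch receptors and so changes which ligands activate them. In the cochlea it marks supporting cells (SCs), the cells that surround hair cells and exchange Notch signals with them during development. Sorting on GFP was meant to enrich SCs, and GFP protein that outlasts its transcript need not follow the current level of *Lfng*. Neutrophils are white blood cells that mature in the bone marrow. Their precursors fill primary granules with enzymes such as myeloperoxidase and elastase, and mature cells carry S100 proteins and chemokine receptors.

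The stretch before the start of *Lfng* is shown because it belongs to the locus that drives the reporter. Those of *Retnlg* and *Ccl6* are shown because these genes were called higher in bright cells. *Tlr13* was called higher there too, and its stretch was not looked up. All 3 genes looked up were matched by symbol in the RefSeq table (GRCm38.p6). Each sequence runs 5′ to 3′ in the direction of the gene over the 250 bases that end just before its RefSeq start, with motif matches in capitals. The GENCODE starts given with the genes differ by some bases, so the end of the *Lfng* window lies inside its GENCODE gene and the *Retnlg* window ends short of its GENCODE start. The windows are chr5:140607091-140607340 on the plus strand for *Lfng*, chr16:48872358-48872607 on the plus strand for *Retnlg* and chr11:83593088-83593337 on the minus strand for *Ccl6*.
Lfng: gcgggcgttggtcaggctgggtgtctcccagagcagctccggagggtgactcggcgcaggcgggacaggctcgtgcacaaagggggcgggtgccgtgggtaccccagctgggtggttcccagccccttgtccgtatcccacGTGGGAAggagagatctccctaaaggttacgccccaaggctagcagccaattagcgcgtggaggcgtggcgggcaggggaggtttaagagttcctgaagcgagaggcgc
Retnlg: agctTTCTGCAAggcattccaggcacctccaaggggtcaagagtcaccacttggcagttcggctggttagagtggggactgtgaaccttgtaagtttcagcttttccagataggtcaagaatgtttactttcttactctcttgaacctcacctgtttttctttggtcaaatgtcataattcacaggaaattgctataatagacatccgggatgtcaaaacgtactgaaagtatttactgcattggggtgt
Ccl6: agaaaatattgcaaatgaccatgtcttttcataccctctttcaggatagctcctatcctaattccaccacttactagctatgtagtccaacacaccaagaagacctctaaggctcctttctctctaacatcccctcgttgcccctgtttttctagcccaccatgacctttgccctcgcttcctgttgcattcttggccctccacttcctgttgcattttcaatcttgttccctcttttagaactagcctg

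These windows were searched on both strands for GTGGGAA, a core bound by RBPJ, the DNA-binding protein of Notch signaling, for TTGCNNAA, a core of C/EBP factors, and for GAGGAA, a core of PU.1 and other ETS factors. The *Lfng* window held 1 match to the RBPJ core and the *Retnlg* window 1 match to the C/EBP core. The *Ccl6* window held 0 of the 3 motifs. Among 32841 windows of the same length, 5.41% held the RBPJ core, 9.57% the C/EBP core and 23.3% the ETS core. A match is a run of letters and was not tested as a binding site.

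The GFP score had its own limits. Its highest value was exactly 1000, reached by 1 cell in each of 10 of the 12 captures, while the highest value was 650 in capture 9c and 771 in capture 19c. The scaling was not stated, so an equal score in 2 captures need not be an equal brightness, and the contrast was made within captures. Bright and dim cells were also spread unevenly over the 3 sequencing runs. Run S059iso1 held 32 dim and 15 bright cells, run S059iso2 10 dim and 29 bright cells, and run S047 19 dim and 10 bright cells. In capture 32, the 9 dim cells were all in S059iso1 and 9 of the 10 bright cells in S059iso2.

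**Figure D1:**
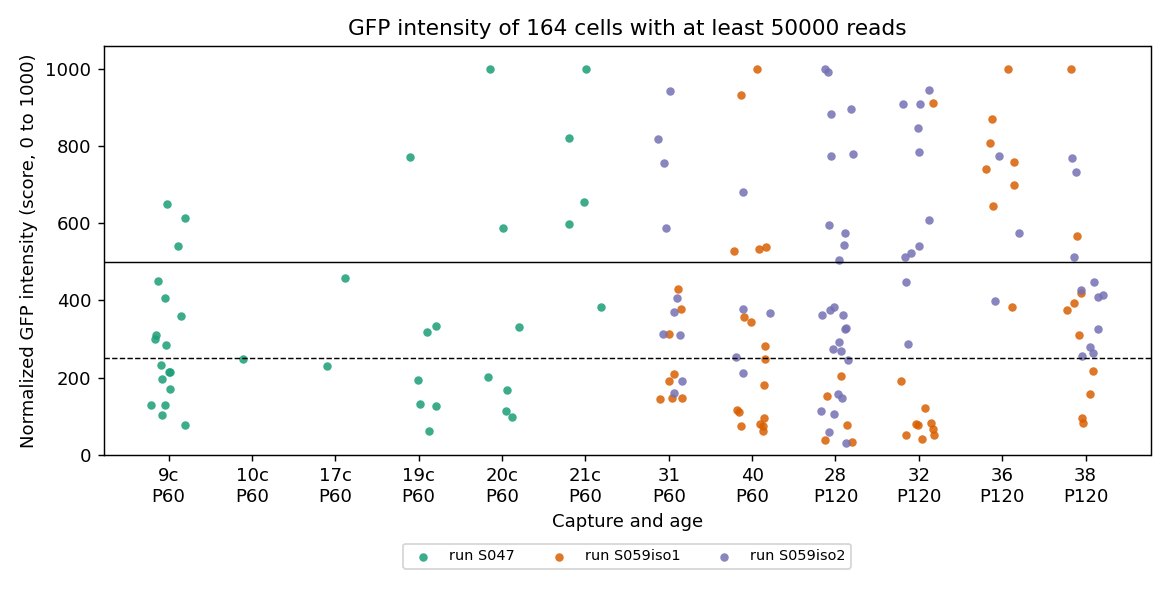
Normalized GFP intensity (score, vertical axis) of each cell with at least 50000 reads, by capture and age (horizontal axis), colored by sequencing run. The solid line at 500 and the dashed line at 250 bound the bright and dim classes; the 4 P120 captures and captures 31 and 40 mix runs S059iso1 and S059iso2, while the other captures were all in S047.

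The label of these cells as SCs was checked against markers. At least 3 of 13 SC genes with 10 or more reads each were found in 3 bright cells (5.56%, exact 95% interval 1.16 to 15.4), in 0 of 49 cells between (up to 7.25%) and in 0 of 61 dim cells (up to 5.87%). The 3 cells had GFP scores of 1000, 597 and 993, and 2 of them came from capture 21c and 1 from capture 28. A cell of capture 28 just under the depth limit, with 43998 reads and a GFP score of 202, also met this rule, so the 0 among dim cells rests on that limit. At an even depth of 50000 reads, the 12 SC genes other than *Lfng* were each found in 0% to 9.26% of bright and 0% to 9.84% of dim cells. Of these, 8 had a higher share in bright cells, *Tectb* and *Gjb6* a higher share in dim cells, and *Fgfr3* and *Epyc* were found in neither class. With *Lfng* included, the list took more reads in bright cells in 5 of 6 captures, but 0.00947% against 0.0735% in capture 9c. DESeq2 called *Gjb6* higher in dim cells, of which 3.28% held it, and no SC gene higher in bright cells. Markers of leukocytes were found in nearly every cell. At least 3 of 10 general leukocyte genes had 10 or more reads in 50 of 54 bright and 60 of 61 dim cells, and at least 3 of 14 mature neutrophil genes in 51 bright and 59 dim cells. The cells are therefore named by their GFP class alone, and the intervals given for shares of cells are exact 95% intervals that cover counting error alone.

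To ask which transcripts went with GFP, reads were summed over the bright and over the dim cells of each capture that held at least 3 cells of each class. This left 6 captures, 31, 40 and 9c at P60 and 28, 32 and 38 at P120, with 38 bright and 51 dim cells. The bright sums held 2302930 to 12351707 reads and the dim sums 5329704 to 22214612 reads. Levels are given as reads on a gene per 1000000 reads on all genes (CPM). The test was the quasi-likelihood test of edgeR, blocked by capture, over 6189 genes. Higher levels in bright cells were called for 3 genes (0.0485% of genes tested) and higher levels in dim cells for 1 gene (0.0162%), at an adjusted p under 0.05. At an unadjusted p under 0.05, 774 genes differed, of which 666 (10.8% of those tested) were higher in dim cells and the others (1.75%) in bright cells. The median log2 fold change of all genes tested was -1.60, and a list is read against that median. It was -1.33 with upper quartile scaling, -2.19 with no factor beyond the total and -1.43 with DESeq2 over the same genes. Over all genes to which DESeq2 gave a fold change, also those without an adjusted p, it was 0.86. The calls were 5 and 1 with upper quartile scaling and 3 and 3 with no factor. DESeq2 called 239 (2.4%) and 1539 (15.4%) of the 9973 genes it tested, and limma called 2 (0.0433%) and 0 of 4623.

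In bright cells, *Retnlg*, *Ccl6* and *Tlr13* were the called genes. *Retnlg* (ENSMUSG00000022651.5, chromosome 16 of build mm10, as all gene positions here, from 48872621 to 48874496) encodes a small secreted resistin-like protein of neutrophils. Its level in the bright sums ran from 1478 through a median of 8316 to 17216 CPM, and in the dim sums from 1.94 through 296 to 6487 CPM. It was higher in bright cells in 6 of 6 captures, although the ranges overlapped, and the smallest gaps were in captures 9c (7793 against 6487 CPM) and 31 (8839 against 4176 CPM). The log2 fold change was 5.79 ± 1.12 (SE, n = 6 captures), with an adjusted p of 0.0136 by edgeR, and it kept passing when any 1 of the 6 captures was left out (adjusted p 1.95e-09 to 0.0442). By age, the log2 fold change of *Retnlg* was 8.45 at P120 alone (edgeR adjusted p = 4.66e-07). At P60 alone, where captures 19c and 20c came in, it was 0.76 and did not pass (edgeR adjusted p = 0.996).

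*Ccl6* (ENSMUSG00000018927.3, chromosome 11 from 83587882 to 83593087) encodes a chemokine of myeloid cells. The bright sums held 459 to 4281 CPM with a median of 2145, and the dim sums 1.53 to 638 CPM with a median of 126. Again 6 of 6 captures were higher in bright cells and the ranges overlapped, since the bright cells of capture 40 lay below the dim cells of capture 9c. The log2 fold change was 5.97 ± 1.28 (SE, edgeR adjusted p = 0.0296). It no longer passed without capture 28, 31, 38 or 40 (edgeR adjusted p 0.073 to 0.216). The span of *Ccl6*, introns included, shares 5206 bases with that of the opposite-strand transcript *E230016K23Rik*. An unstranded count may mix their reads, and whether their exons overlap was not looked at.

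*Tlr13* (ENSMUSG00000033777.3, chromosome X from 106143204 to 106160493) encodes an endosomal receptor for bacterial ribosomal RNA. Its bright sums ran from 10.1 through 123 to 396 CPM, while the dim sums were at 0 in 4 captures and at 0.0988 and 2.44 CPM in the others. The groups did not overlap, which was true of 6 genes (0.0969% of those tested) in this direction. The log2 fold change was 11.3 ± 2.38 (SE, edgeR adjusted p = 0.0296), and its size rests on the few dim reads. It no longer passed without capture 31 or 40 (edgeR adjusted p = 0.27 and 0.14). Few cells carried it, with a read at 50000 reads in 22.2% of bright, 6.12% of middle and 4.92% of dim cells.

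**Figure D2:**
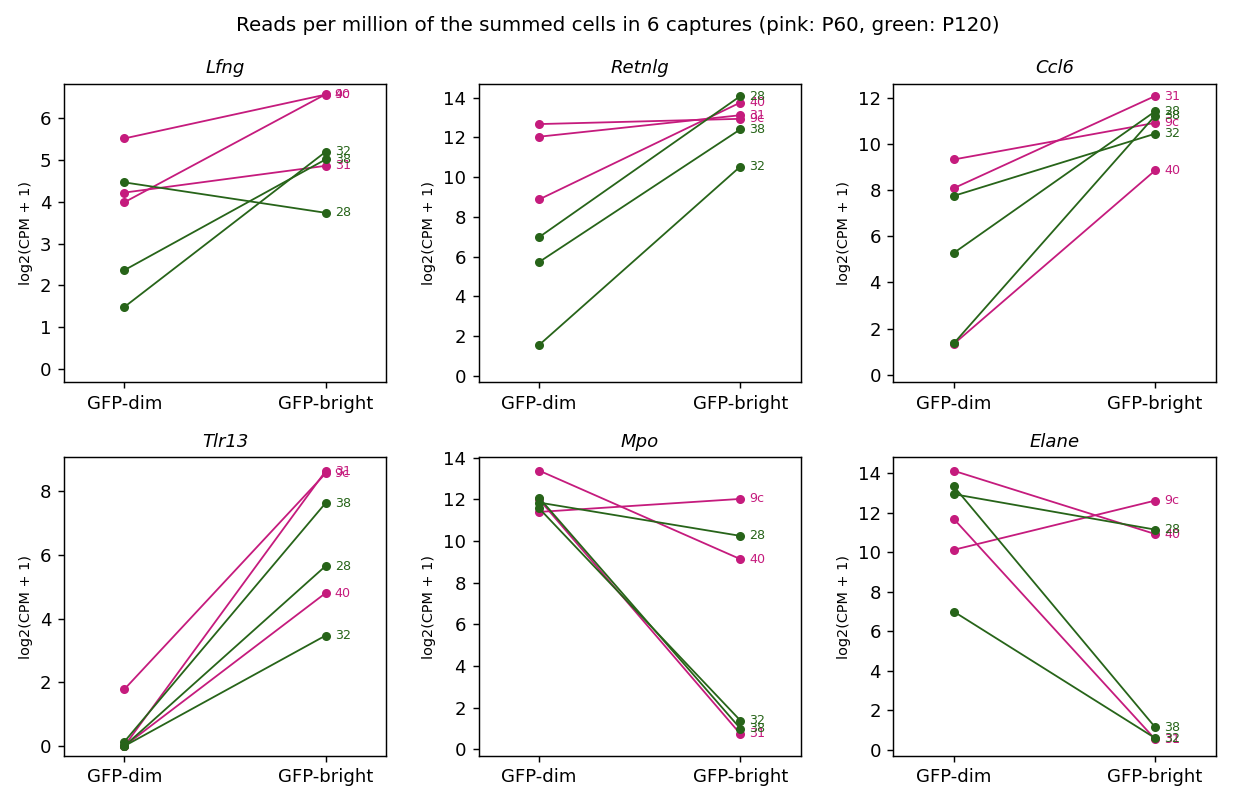
log2(CPM + 1) of the summed dim and bright cells (horizontal axis) in each of 6 captures, joined by a line per capture, for 6 genes; pink is P60 and green P120. *Retnlg*, *Ccl6* and *Tlr13* rise to the right in all 6 captures, *Mpo* and *Elane* fall in all but capture 9c, and *Lfng* is higher in bright cells in all but capture 28.

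In dim cells, the called gene was *Gm20492* (ENSMUSG00000092593.1, chromosome 10 from 127288514 to 127289681), annotated as a processed transcript. It had 0 reads in the bright cells of these captures and 455 reads in 15 of the dim cells. The dim sums held 1.76 to 18.2 CPM. Set against a floor of 3 counts over the bright sums, the level was at least 86.1-fold higher in dim cells, with an edgeR adjusted p of 0.0296. It still passed without capture 9c and no longer passed without any other capture (edgeR adjusted p 0.0887 to 0.235). Its span shares 505 bases with that of *Mbd6* on the opposite strand, so reads there may be mixed, and overlap of exons was not looked at.

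Because fewer than 5 genes passed in either direction, the genes of lowest p among those read in at least 25% of the cells of the higher class are given too, counted at each cell's full depth and not at 50000 reads. Beside *Retnlg*, *Tlr13* and *Ccl6*, these were *Samhd1*, a nucleotide hydrolase that limits viruses, and *Slc7a11*, the cystine transporter. *Samhd1* had bright sums of 72.5 to 2219 CPM against 1.67 to 246 CPM in dim sums, with a log2 fold change of 6.56 ± 1.57 that did not pass (edgeR adjusted p = 0.0872). *Slc7a11* did not overlap between the groups, which was true of 0.0969% of the genes tested in this direction. Its medians were 433 CPM in bright and 10.1 CPM in dim sums, and its log2 fold change of 6.89 ± 1.68 did not pass either (edgeR adjusted p = 0.0948). In the dim direction, the 5 genes were *Cdc25c*, a phosphatase that starts mitosis, *Tcp1*, a chaperonin subunit, *Mpo*, 2610005L07Rik and *Arsa*, the lysosomal arylsulfatase A. None of the 5 passed, with edgeR adjusted p between 0.0872 and 0.237 and log2 fold changes between -10.4 and -6.53. *Cdc25c* lay at 6.77 to 690 CPM in dim sums and at no more than 0.413 CPM in bright sums, and *Tcp1* at 67 to 351 CPM against at most 2.17 CPM. All dim sums lay above all bright sums for 1.66% of the genes tested, *Gm20492*, *Cdc25c*, *Tcp1*, 2610005L07Rik and *Arsa* among them. Without capture 9c, 26 genes passed as higher in bright and 5 as higher in dim cells. *Slc7a11*, *Cdc25c*, *Tcp1*, *Mpo*, 2610005L07Rik and *Arsa* also overlap genes of the other strand, whose reads may be mixed with theirs.

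Genes of mature neutrophils lay higher in bright cells as a list, although 1 of them passed the test. All 14 were tested and all 14 had a log2 fold change above zero, with a median of 3.88, which is 5.48 above that of all genes. *Retnlg* alone passed (1 of 14), 9 had an unadjusted p under 0.05, and DESeq2 called 7, all higher in bright cells. In that direction, the shares over all genes were 0.0485%, 1.75% and 2.4%. The list took 4.11% to 16.7% of reads in bright sums and 2.61% to 12.7% in dim sums, and was higher in bright cells in 5 of 6 captures. Its most abundant members were *S100a9* and *S100a8*, subunits of calprotectin, *Retnlg* and *Il1b*, which encodes interleukin 1 beta.

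*S100a8* ranged from 19079 to 53726 CPM in bright and from 13393 to 46287 CPM in dim sums, and *S100a9* from 9297 to 90761 and from 11894 to 62141 CPM. Their log2 fold changes of 0.88 ± 0.45 and 1.04 ± 0.46 did not pass (edgeR adjusted p = 0.414 and 0.343). The 2 genes were found in nearly every cell of either class, with reads of *S100a9* in 96.3% of bright and 93.4% of dim cells. *Il1b* differed more widely between captures, from 11.7 to 9500 CPM in bright and 1.68 to 6712 CPM in dim sums, and was higher in bright cells in 4 of 6 captures (log2 fold change 3.39 ± 1.16, edgeR adjusted p = 0.266).

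Genes of granulocyte precursors, which encode primary granule proteins, lay lower in bright cells, and 0 of 8 passed with edgeR. All 8 had a log2 fold change below zero, with a median of -4.93, or -3.34 relative to that of all genes. At an unadjusted p under 0.05, 6 of the 8 were higher in dim cells, as were 10.8% of all genes. DESeq2 called 6 there, where it called 15.4% of all genes. *Mpo*, the gene of myeloperoxidase (ENSMUSG00000009350.13, chromosome 11 from 87793581 to 87804413), lay between 2698 and 10692 CPM in the dim sums. The bright sums split, with 0.673 to 1.62 CPM in captures 31, 38 and 32, and 560, 1216 and 4161 CPM in captures 40, 28 and 9c. Capture 9c was the exception in direction, and without it *Mpo* and *Elane* both passed, as they did without capture 28. The log2 fold change of *Mpo* was -6.53 ± 1.76 (edgeR adjusted p = 0.195).

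*Elane*, which encodes neutrophil elastase, showed the same split, with bright sums between 0.448 and 1.20 CPM in captures 31, 32 and 38 and between 1926 and 6223 CPM in the other captures. Its dim sums ran from 126 to 17691 CPM (log2 fold change -4.98 ± 1.52, edgeR adjusted p = 0.248). *Fcnb*, a ficolin, and *Ms4a3*, a membrane protein of these precursors, had log2 fold changes of -2.37 ± 1.77 and -4.82 ± 1.92 (edgeR adjusted p = 0.577 and 0.309). In a sum over cells, fewer cells of a type and less RNA per cell cannot be told apart. Counted by cell, at least 2 of the 8 precursor genes had 10 or more reads in 14 of 54 bright cells (25.9%, interval 15 to 39.7), 12 of 49 middle cells (24.5%) and 38 of 61 dim cells (62.3%, 49 to 74.4). With every cell at 50000 reads and a limit of 1 read, the shares were 33.3%, 26.5% and 67.2%.

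The cells between the limits, which were left out of the main tests, stood near the bright cells for several genes. At 50000 reads, *Retnlg* was found in 87% of bright (interval 75.1 to 94.6), 87.8% of middle (75.2 to 95.4) and 50.8% of dim cells (37.7 to 63.9). *Ccl6* was found in 74.1%, 67.3% and 37.7% of the same classes, and *Il1b* in 79.6%, 65.3% and 37.7%. *Mpo* was found in 20.4%, 14.3% and 60.7%, and *Elane* in 16.7%, 24.5% and 52.5%. For these 5 genes, pooled over runs, the middle class was thus closer to the bright than to the dim class, and this closeness was not tested. The run was not held even here, since 27 middle cells were in S059iso2. In S047, *Il1b* was found in 70% of bright, 54.5% of middle and 63.2% of dim cells, and *Ccl6* in 70%, 63.6% and 57.9%. There the middle class was nearer the dim class for these genes, and nearer the bright class for *Retnlg*, *Mpo* and *Elane*. An ordered trend over the dim, middle and bright classes called 0 of 7380 genes by edgeR. Its log2 fold changes were 2.39 for *Retnlg*, 4.10 for *Ccl6* and -6.68 for *Mpo* (edgeR adjusted p = 0.503, 0.296 and 0.141).

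**Figure D3:**
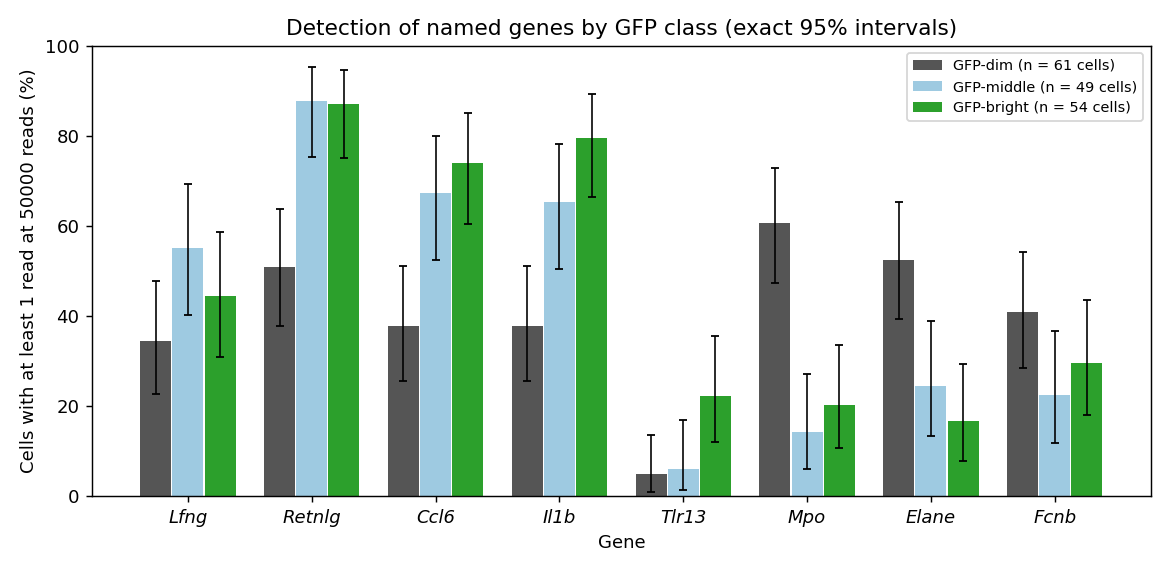
Share of cells with at least 1 read at an even depth of 50000 reads (vertical axis, percent) for 8 genes, in 61 dim, 49 middle and 54 bright cells; bars are shares and lines exact 95% intervals. The middle bars stand near the bright bars for *Retnlg* (87.8% and 87%) and *Mpo* (14.3% and 20.4%), and near the dim bar for *Tlr13* (6.12% and 4.92%).

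The precursor cells also went with the sequencing run. Among dim cells they were 27 of 32 in S059iso1, 6 of 10 in S059iso2 and 5 of 19 in S047, and among bright cells 4 of 15, 9 of 29 and 1 of 10. The direction was the same in each run, and the size was not. The share of cells with *Retnlg* was 80% in bright and 31.2% in dim cells of S059iso1, 96.6% and 60% in S059iso2, but 70% and 78.9% in S047. That of *Mpo* was 20% and 78.1%, 24.1% and 60%, and 10% and 31.6%. With capture and run together as the block and at least 1 cell of each class, 9 pairs of sums remained from 29 bright and 49 dim cells, and 0 of 2674 genes passed in either direction by edgeR, with 94 at an unadjusted p under 0.05. In that fit the log2 fold change of *Retnlg* was 3.27, of *Ccl6* 2.11 and of *Mpo* -2.03, with an adjusted p of 0.999 for each. With capture alone as the block and the same minimum of 1 cell, they were 3.82, 4.29 and -4.06, and with capture and run at the minimum of 3 cells, which left 3 pairs, 6.85, 6.11 and -1.52. None of these passed (edgeR adjusted p 0.256 to 1). *Retnlg* was higher in bright cells in 8 of the 9 pairs, *Ccl6* in 7 and *Mpo* in 3. The part of the run in the contrast was not tested beyond this.

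**Figure D4:**
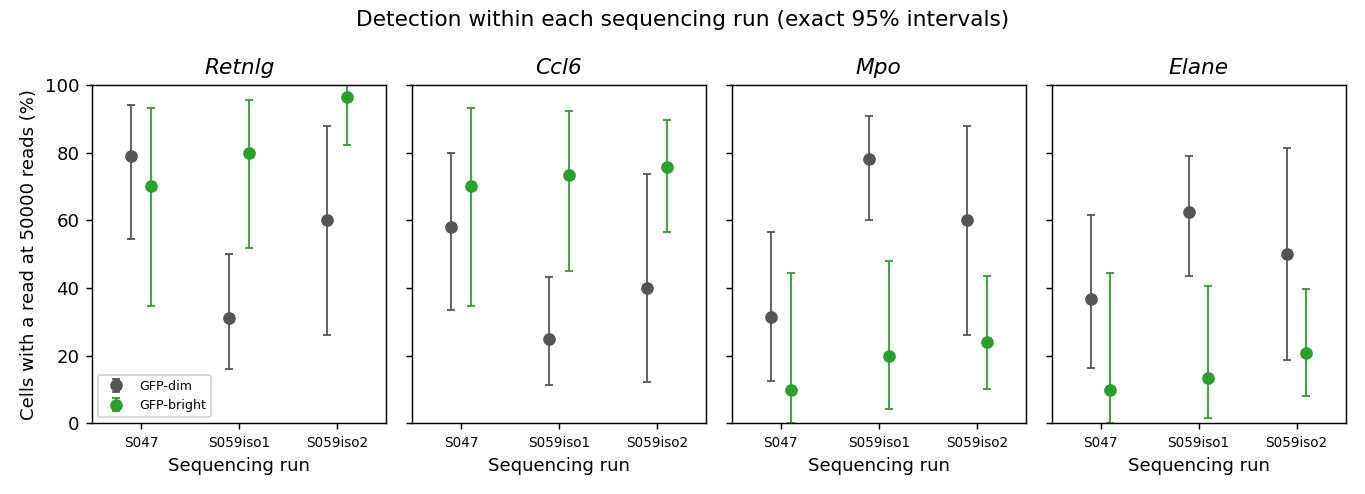
Share of dim and bright cells with at least 1 read at 50000 reads (vertical axis, percent) within each of the 3 sequencing runs (horizontal axis), for 4 genes; lines are exact 95% intervals. *Retnlg* stands higher in bright cells in S059iso1 (80% against 31.2%) and S059iso2, and lower in S047 (70% against 78.9%), while *Mpo* is lower in bright cells in every run.

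Cells that met the precursor rule were also left out of both classes. The bright and dim cells that remained, 20 and 22 in captures with at least 1 of each, gave 0 called genes among 1342 tested by edgeR, with 61 at an unadjusted p under 0.05. These cells came from captures 19c, 20c, 28, 31, 38, 40 and 9c, so capture 32 dropped out and 19c and 20c came in. There the log2 fold change of *Retnlg* was 1.67, of *Ccl6* 3.57 and of *Samhd1* 3.60, and the median of all genes was -0.12. *S100a8* and *S100a9* came to -0.12 and -0.11, the opposite direction. With precursor cells kept and the same minimum of 1 cell, which also kept capture 32, *Retnlg* was 3.82 and *Ccl6* 4.29. How much of the change came from the precursor cells was not tested. With basophil cells left out as well, 0 of 1238 genes were called and 37 had an unadjusted p under 0.05.

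Other lists of blood cells had few genes past any threshold. Genes of the specific granule stage, between precursor and mature neutrophil, split into 5 of 8 above and 3 below zero with none past the test. Their median of 0.17 was 1.76 above that of all genes. By reads, this list was higher in dim cells in 4 captures and in bright cells in 2. All 10 general leukocyte genes had a log2 fold change above zero, none with an unadjusted p under 0.05, and a median of 0.58. Of the 4 tested genes of monocytes and macrophages, 3 lay above zero and 0 passed, with a median of 2.82, which is 4.42 above that of all genes. DESeq2 called 2 (*Csf1r* and *Cd68*) higher in bright cells, where it called 2.4% of all genes. Basophil and mast cell genes were carried by a minority of the cells of either class. At least 2 of the 9 had 10 or more reads in 17 of 61 dim cells, 15 of which were in S059iso1, and in 4 of 54 bright cells. These dim cells were nearly all at P120 and included every dim cell of capture 32, while no P60 dim cell of S059iso1 met the rule. In capture 32 the list took 6.86% of reads in dim and 0.0574% in bright cells. It was higher in dim cells in 4 captures and in bright cells in 2. Of the 3 basophil genes tested, all were below zero and 0 passed. At an unadjusted p under 0.05, 2 were higher in dim cells, as were 10.8% of all genes. Lists of eosinophils, erythroid cells, neurons, fibroblasts and hair cells had no tested gene, and those of endothelial cells, glia, B cells and T or NK cells had 1 each, none past the test. DESeq2, which tested more genes, called *Ear2* of the eosinophil and *Gzma* of the T and NK cell list higher in bright cells, and *Kit* of the basophil, *Cnp* of the glia and *Ighm* of the B cell list higher in dim cells. Its log2 fold changes for *Gzma* (29.9) and *Gjb6* (-29.8) lay far beyond those of the other listed genes and are not read as sizes. The T and NK cell list took more reads in dim cells in 4 captures and in bright cells in 2. In capture 9c it took 0.336% of reads in bright and 0% in dim cells.

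For *Lfng* itself (ENSMUSG00000029570.5, chromosome 5 from 140607320 to 140615545), transcript and reporter could be set side by side. The bright sums ran from 12.3 through 33.3 to 93.4 CPM and the dim sums from 1.80 through 16.2 to 44.5 CPM. *Lfng* was higher in bright cells in 5 of 6 captures and lower in capture 28 (12.3 against 21 CPM), and the ranges overlapped. The log2 fold change was 2.26 ± 2.01 (SE, n = 6 captures), which did not pass (edgeR adjusted p = 0.645). DESeq2 gave 2.42 with an adjusted p of 0.0539, while blocking by capture and run gave 0.14 at a minimum of 1 cell and 1.85 at a minimum of 3 cells. With capture alone and a minimum of 1 cell it was 1.37.

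Counted by cell at 50000 reads, *Lfng* was found in 50% ± 22.3 of bright and 28.5% ± 24.9 of dim cells (SD over 6 captures). The difference of 21.5 percentage points had an exact two-sided sign-flip permutation p of 0.0625, or 0.219 adjusted over the 7 single values compared, and it was higher in bright cells in 5 of 6 captures. The smallest p that 6 captures allow is 0.0312. Without the even depth the difference was 8.61 points (exact permutation p adjusted over the same 7 values 0.787). Over all cells the shares were 44.4% in bright (interval 30.9 to 58.6), 55.1% in middle (40.2 to 69.3) and 34.4% in dim cells (22.7 to 47.7), so the middle class had the highest share. Within runs, *Lfng* was found in 60% of bright and 36.8% of dim cells in S047, in 46.7% and 31.2% in S059iso1, and in 37.9% and 40% in S059iso2. The reporter's own RNA was not analysed here.

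The rest of the Notch pathway was read by role. Of its 40 listed genes, 17 were tested and 0 passed with edgeR. The other fringe genes, *Mfng* and *Rfng*, were under the limit for testing and were found in 3.70% and 0% of bright and 4.92% and 8.20% of dim cells. Of the receptors, *Notch2* ran from 68.6 through 348 to 3449 CPM in bright and from 35.1 through 134 to 300 CPM in dim sums, and was higher in bright cells in 5 of 6 captures. Its log2 fold change of 2.53 ± 1.22 had an unadjusted p of 0.0415 and an adjusted p of 0.386 by edgeR, and DESeq2 called it at 0.0414. *Notch1* had 0.909 to 54.5 CPM in bright and 0 to 65.5 CPM in dim sums (log2 fold change 3.19 ± 3.14, edgeR adjusted p = 0.680).

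The ligand *Jag1* had a log2 fold change of 0.40 ± 2.60 (edgeR adjusted p = 0.970), which was -0.39 with no factor beyond the total, and the ligands *Dll1*, *Dll3*, *Dll4* and *Jag2* were under the limit for testing. The Notch targets, among them the *Hes* and *Hey* transcription factors, had 0 of 7 tested, and no target was found in more than 8.20% of cells of either class at 50000 reads. DESeq2, which tested more genes, called *Hes6* higher in dim cells. Of the 13 tested genes for receptor processing and transcription, 2 lay above zero (*Adam17*, and *Itch*, which was -0.34 with no factor beyond the total) and 11 below (among them *Rbpj*, *Maml1*, *Adam10*, *Psen2*, *Ncstn*, *Psenen*, *Numb*, *Dtx3*, *Mib1* and *Spen*). Their median of -1.89 was -0.29 relative to that of all genes. *Mib1*, a ubiquitin ligase that primes Notch ligands, had the lowest unadjusted p, with at most 91.2 CPM in bright and 36.6 to 241 CPM in dim sums and a log2 fold change of -8.65 ± 2.96 (edgeR adjusted p = 0.262). *Dtx3*, another ubiquitin ligase, had -5.42 ± 2.28 (edgeR adjusted p = 0.321), with capture 9c the other way (47.8 CPM in bright against 2.44 CPM in dim cells). DESeq2 called 3 of the 17 it tested, *Mib1*, *Psen2* and *Numb*, all higher in dim cells, where it called 15.4% of all genes.

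The study examined a set of genes as SC markers or lists a tissue probe for them, and 0 of 15 such genes passed with edgeR, while 11 lay above zero and 4 below. Their median of 1.50 was 3.09 above that of all genes. The study took some of them from earlier work on SCs and picked others on these same cells, so the list is not independent evidence of a direction. At an unadjusted p under 0.05, 5 were higher in bright cells (*Notch2*, *Nlrp3*, *S100a6*, *Pla2g7* and *Pirb*), and DESeq2 called the same 5. Over all genes, 1.75% were higher in bright cells at that limit, and DESeq2 called 2.4%. *S100a6*, a calcium-binding protein, ran from 190 through 681 to 1316 CPM in bright and 0.135 through 143 to 501 CPM in dim sums (log2 fold change 3.76 ± 1.40, edgeR adjusted p = 0.291). *Pla2g7*, a secreted phospholipase, ran from 8.42 to 1098 CPM against 0.045 to 369 CPM (5.82 ± 1.95, edgeR adjusted p = 0.262).

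*Pirb*, an inhibitory receptor of myeloid cells, ran from 21.7 to 1579 CPM in bright and from 0.395 to 270 CPM in dim sums (3.28 ± 1.47, edgeR adjusted p = 0.344). *Nlrp3*, the inflammasome sensor, ran from 4.78 to 496 CPM and from 0 to 83.1 CPM (4.47 ± 2.17, edgeR adjusted p = 0.390), and was found in 63% of bright and 27.9% of dim cells. *S100a6*, *Pla2g7*, *Pirb* and *Myh9*, a nonmuscle myosin, were higher in bright cells in 6 of 6 captures, as were 1.1% of all genes tested. *Spry2*, an inhibitor of growth factor signaling, was lower in bright cells in 6 of 6, as were 9.1% of all genes, with at most 126 CPM in bright and 20.5 to 301 CPM in dim sums. Of the others, *Slc2a3* (2.13), *Cdkn1b* (1.50), *Lcp1* (1.38), *Notch1* (3.19) and *Dstn* (0.34, but -0.23 with no factor beyond the total) lay above zero and *Tuba1b* (-1.41), *Birc5* (-1.42) and *S100a1* (-0.83) below. With capture and run as the block none of the 14 that could be tested passed, and *S100a6*, *Pla2g7* and *Pirb* came to 1.38, 1.83 and 0.41 with at least 1 cell of each class. They came to 2.64, 3.96 and 1.81 with that minimum and capture alone as the block, and to 2.30, 3.23 and 1.78 with capture and run at the minimum of 3 cells.

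**Figure D5:**
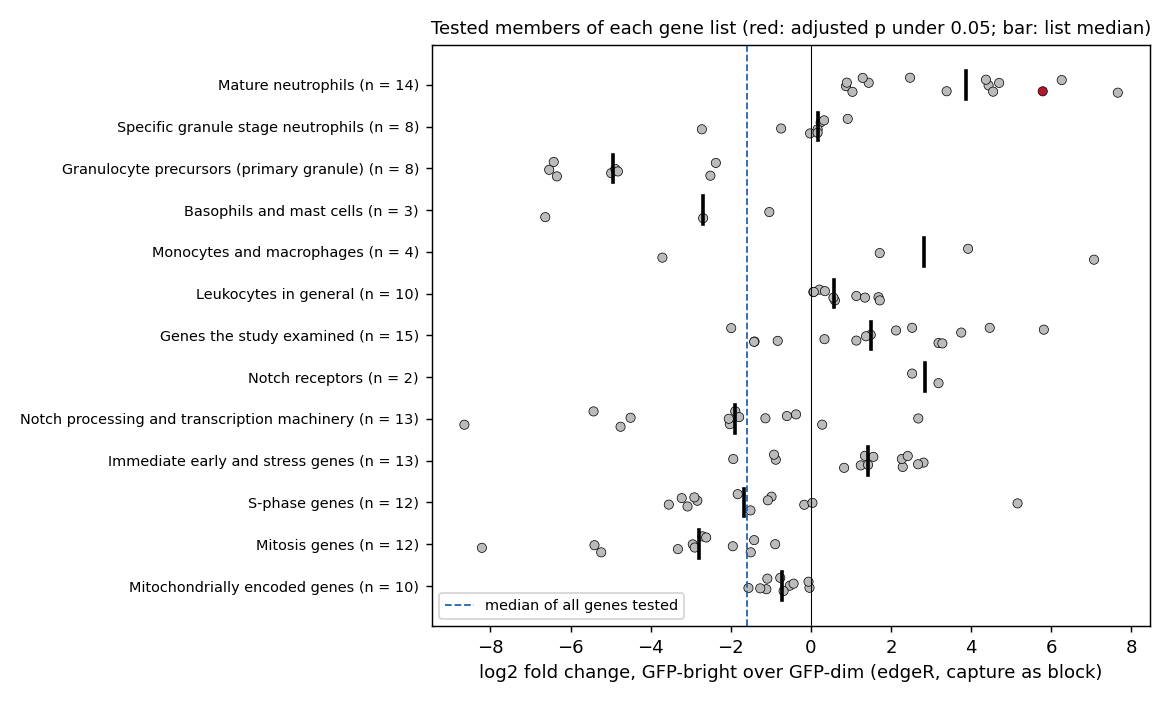
log2 fold change of bright over dim (horizontal axis, edgeR with the capture as block) for each tested gene of 13 lists, with a black bar at the list's median and a dashed line at the median of all genes tested (-1.60). The 14 mature neutrophil genes all lie right of zero and the 8 precursor genes all left of it, and the single red point is *Retnlg*.

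No gene of cell division passed with edgeR. All 12 mitosis genes were below zero, with a median of -2.80, or -1.20 relative to that of all genes. Of these, 3 had an unadjusted p under 0.05 and were higher in dim cells, as were 10.8% of all genes, and DESeq2 called 3, where it called 15.4% of all genes. The list took more reads in dim than in bright cells in 6 of 6 captures, 0.119% to 0.399% against at most 0.187%. *Mki67*, which encodes a protein of dividing cells, ran from 0.224 to 430 CPM in bright and from 121 to 853 CPM in dim sums (-1.95 ± 1.60, edgeR adjusted p = 0.614). *Top2a*, the topoisomerase that untangles replicated chromosomes, was higher in bright cells in 3 of 6 captures (-0.89 ± 1.48). Counted by cell, at least 3 mitosis genes had 10 or more reads in 11 of 54 bright and 28 of 61 dim cells. Of 12 S-phase genes, 10 were below zero, none passed, and their median of -1.67 was -0.07 relative to that of all genes.

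Immediate early genes, which respond within minutes to stress or tissue handling, took more reads in bright cells in 6 of 6 captures, 0.471% to 1.84% against 0.101% to 1.36%. Of 13 tested, 10 were above zero, 4 had an unadjusted p under 0.05 and 0 passed with edgeR, while DESeq2 called 2. These 4 and 2 were higher in bright cells, where the shares over all genes were 1.75% and 2.4%. *Dusp1*, a phosphatase of this response, was higher in bright cells in 5 of 6 captures (log2 fold change 2.68 ± 1.0, edgeR adjusted p = 0.291), and *Btg2* in 4 (1.43 ± 0.95, edgeR adjusted p = 0.533). All 10 tested mitochondrially encoded genes were below zero, with a median of -0.72 that lay 0.87 above that of all genes, and none passed.

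Measures of depth were compared over the same 6 captures. Bright cells held fewer genes, with capture medians of 1209 ± 384 genes per cell at 50000 reads against 1924 ± 537 in dim cells (SD, n = 6), and were lower in 5 of 6 captures (exact two-sided sign-flip permutation p = 0.0625, adjusted 0.219). In capture 9c bright cells had more, with 1404 against 998 genes. Reads on genes had a mean log10 of 5.98 in bright and 6.21 in dim cells (exact permutation p = 0.125, adjusted 0.219). Reads on genes per uniquely mapped read came to 0.522 and 0.591 (exact permutation p = 0.125, adjusted 0.219), and mitochondrially encoded genes took 1.06% ± 1.97 and 1.24% ± 0.845 of reads (exact permutation p = 0.875). The TMM factor of the sums was 0.615 to 0.827 in bright cells and 0.935 to 1.57 in dim cells of the captures other than 9c, where it was 1.73 and 1.54. Spike-ins took 73.9% of reads in bright and 78.2% in dim cells of capture 9c and almost none elsewhere. With every cell thinned to 50000 reads, edgeR called 0 of 2713 genes. There *Retnlg* was 4.93 and *Ccl6* 4.30 (edgeR adjusted p = 0.192 and 0.253). How far these measures enter the gene calls was not tested beyond this.

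Age was read on the same sums. At P60 the captures 31, 40 and 9c, and at P120 the captures 28, 32 and 38, gave a class-by-age term that passed for 0 of 6189 genes by edgeR, with 163 genes at an unadjusted p under 0.05, and no other tool was run for it. With each capture left out the term passed for 0 to 3 genes, *Retnlg* among them without capture 38. At P120 alone, 4 genes were called higher in bright cells (*Retnlg*, *Il1b*, *Cxcl2* and *Trem1*) and 0 in dim cells. At P60 alone, with captures 19c and 20c added because 1 cell of each class was then enough, 0 were called higher in bright cells and 1 (*Ngp*) in dim cells. *Cxcl2*, *Trem1* and *Ngp* are named here after their values were seen. The share of bright cells was 46.4% ± 25.6 in 4 captures at P120 and 31.5% ± 24.4 in 6 captures at P60 with at least 3 cells (exact two-sided permutation p = 0.314, adjusted 0.440). Since the score was not shown to be on 1 scale across captures, this share is a description of the score.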

How the data were processed

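The deposited counts are raw reads per gene and cell, which the authors obtained with STAR (build mm10, per the labels), 1 library per cell and no molecular identifiers. The GFP score was deposited with a maximum of 1000, and how the authors measured and scaled it is not given in the sources used here. Gene positions came from GENCODE vM21 and sequences from RefSeq.

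Spike-ins were dropped, cells with at least 50000 reads on genes were kept, and counts were summed by capture and class where a capture held at least 3 cells of each. The sums were fitted in edgeR 4.0.16 (TMM, filterByExpr, quasi-likelihood, capture as block) with Benjamini-Hochberg adjustment at 0.05. The SE of an edgeR log2 fold change was worked back from the test, as its absolute value over the square root of the F statistic. It is not a spread of values over captures. DESeq2 1.42.0 and limma 3.58.1 were alternatives, beside other scalings, limits, blocks and left-out captures. Shares of cells used cells thinned to 50000 reads, and single values used exact sign-flip or label permutation tests (scipy 1.17.1).

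Named genes were those of the Notch lists and of the genes the study examined, those past the threshold, the 5 of lowest p per direction (if 25% of cells in the higher class had a read) where fewer than 5 passed, and up to 4 most abundant members of marker lists; 1 gene of the Notch lists is not reported here. Members and lists were chosen with earlier results of these data known. On counts simulated for the bright against dim comparison with the captures' own dispersion, 0 of 200 changed genes were recovered at 4-fold (6053 genes) and 0 of 200 at 16-fold (6047 genes). At a dispersion of 0.1, 200 of 200 were recovered at 4-fold (6183 genes, 11 false calls) and 200 of 200 at 16-fold (6180 genes, 7 false calls). Captures came from separate pools of mice. P-values of the tests blocked or paired by capture measure how the bright minus dim difference varied between captures. That of the share of bright cells by age measures the spread between captures.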

Additional observations from a re-analysis of the deposited data

Results flagged for a closer look

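Among 13 groups of 4 to 10 captures looked at for a capture far from the rest, 3 had one, where chance flags about 1 group in 20. In capture 9c, spike-ins took 4.29 percentage points less of the reads in bright than in dim cells (-4.29), against differences of 0 to 0.00167 in the other 5 captures. In the same capture, mitochondrially encoded genes took 4.17 points more of the reads in bright than in dim cells, against -2.20 to -0.532 in the others. Capture 21c had 80% bright cells, against 14.3% to 28.6% in the other P60 captures with at least 3 cells, and it also held 2 of the 3 cells with SC markers. Of 50 named genes looked at by age, none had every P60 capture moving one way and every P120 capture the other.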

How the results depend on the processing

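The 3 genes higher in bright and 1 higher in dim cells depended on most choices. Both counts were 0 with no replicate block, with at least 1 cell per class, with capture and run as the block (at least 1 or at least 3 cells), with cells thinned to 50000 reads (alone or with that block), with bright cells at 1000, with the classes split at 500 or at 250, without precursor cells (alone, with basophils also left out, or with capture and run as the block), and for an ordered trend over the 3 classes. Unadjusted p under 0.05 was then met by 25 to 919 genes. The count in bright cells was 5 with upper quartile scaling, 10 with at least 5 cells, 0 at P60 alone, 239 with DESeq2 and 1 to 26 with each capture left out. The count in dim cells was 3 with no factor beyond the total, 0 with no filter, at least 5 cells, P120 alone or limma, 1539 with DESeq2 and 0 to 5 with each capture left out. The class-by-age count of 0 became 1 with thinned cells and 0 to 3 with each capture left out. A higher or lower limit on reads per cell, or leaving out cells with SC markers, of which 1 was in the fit, left the same 4 genes called. The block by capture came from the design, since both classes of a capture share its chip and mice, and removing the pairing gave 0 and 0. With DESeq2 the counts called were 1 of the Notch receptors, 1 of the Notch targets, 3 of the Notch machinery, 5 of the genes the study examined, 1 SC, 1 glia, 1 T or NK cell, 1 eosinophil, 1 S-phase, 3 mitosis, 2 immediate early, 7 mature neutrophil, 6 precursor, 1 basophil, 2 monocyte and 1 B cell gene. With thinned cells 0 mature neutrophil genes passed, and the medians above all genes were 1.84 for the genes the study examined and 2.73 for monocytes. With no factor beyond the total 1 precursor gene passed. *Lfng* was -0.041 with bright cells at 1000, the P120 minus P60 share of bright cells was then -2.20 points, the bright minus dim difference in spike-ins was 0.000334 points without capture 9c (range with each capture left out -0.857 to 0.000334), and that in mitochondrially encoded genes 0.233 without capture 28 (range -1.04 to 0.233). The cause of each change was not tested.

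Log2 fold changes that took the opposite sign, none of which passed in the comparison as reported, are given by choice. P60 alone gave *Btg2* -0.42, *Dstn* -1.19, *Itch* -0.79, *S100a8* -0.31, *S100a9* -0.21, *Spen* 0.79, *Rbpj* 0.50, *Slc2a3* -4.94, *Pirb* -0.62 and *Lcp1* -0.081. No replicate block gave *Ncstn* 0.28, *Spen* 0.81, *Psenen* 0.030, *Adam10* 0.18 and *Maml1* 0.90. At least 5 cells gave *Fcnb* 1.52, *Jag1* -0.33, *Mki67* 0.061 and *Adam10* 0.97. No factor beyond the total gave *Jag1* -0.39, *Dstn* -0.23 and *Itch* -0.34. Capture and run as block with at least 3 cells gave *Jag1* -0.52, *Rbpj* 1.20, *Mki67* 0.024, *Adam10* 0.24, *Top2a* 0.50 and *Tuba1b* 0.18. The classes split at 500 gave *Jag1* -0.79 and *Slc2a3* -0.53. P120 alone gave *Jag1* -1.01 and *Maml1* 1.09. Limma gave *Jag1* -0.20, *Dstn* -0.36, *Itch* -0.067 and *Cdkn1b* -0.011. At least 1 cell gave *Dstn* -0.32 and *Slc2a3* -0.63. Capture and run as block gave *Dstn* -0.68, *Top2a* 1.03, *Lcp1* -0.70 and *Tuba1b* 1.26. Cells thinned to 50000 reads gave *Dstn* -0.15 and *Itch* -0.14. Thinned cells with capture and run as block gave *Dstn* -0.45, *Top2a* 0.27, *Lcp1* -0.59 and *Tuba1b* 0.75. Bright cells at 1000 gave *Dstn* -1.18, *Itch* -4.22, *S100a6* -2.30, *S100a9* -0.45, *Notch2* -1.33, *Slc2a3* -5.03, *Cdkn1b* -0.26, *Nlrp3* -1.06, *Lcp1* -1.77 and *Myh9* -0.16. The classes split at 250 gave *Dstn* -0.016, *Spen* 1.97, *Slc2a3* -0.43 and *Spry2* 0.61. No precursor cells gave *Dstn* -0.67, *S100a8* -0.12, *S100a9* -0.11, *Slc2a3* -1.21, *Pirb* -0.66 and *Adam17* -0.24. No precursor or basophil cells gave *Dstn* -0.71, *S100a8* -0.41, *S100a9* -0.30, *Slc2a3* -1.57, *Pirb* -1.31, *Adam17* -0.28, *Lcp1* -0.079 and *Tuba1b* 0.25. An ordered trend over the 3 classes gave *Slc2a3* -0.14, *Adam10* 0.49 and *Maml1* 0.027. No precursor cells and capture and run as block gave *Pirb* -0.68, *Psenen* 0.44 and *Lcp1* -0.55. With each capture left out in turn, *Jag1* ran from -0.49 to 1.58, opposite without 31, 32 or 9c. *Itch* ran from -0.15 to 1.11, opposite without 28 or 32. *Psenen* ran from -1.15 to 0.074, opposite without 28. *Adam10* ran from -0.95 to 0.50, opposite without 38 or 9c.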
